A study of Homo sapiens with 24 samples.

Results

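A group of 105 transcripts in MOLT4 cells stood above the median gene after 4 h with SK-3-91 and below it after 8 h, out of 9822 genes measured. The labels call SK-3-91 a pan-kinase degrader, and MOLT4 is a line of human leukaemic T-lineage lymphoblasts. The genes were chosen by 2 values. For each time, the mean CPM (each gene's share of a library's counts, scaled up) of the 4 SK-3-91 libraries was divided by that of the 4 DMSO libraries, with 0.5 CPM added to each, and the median log2 ratio of all genes was subtracted. A gene was taken when this centred log2 ratio was at least 0.3 at 4 h and at most -0.3 at 8 h. Symbols starting with ZNF, SLC, NDUF, PSM or MRP, and ADA, LCK and CDK4, were left out of the choice, which set aside 10 further genes that passed both thresholds, among them CDK4, ADA and the proteasome genes PSMC3, PSMD4 and PSMA4.

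The libraries, 24 in all, were 4 each of cells harvested after 1, 4 and 8 h in SK-3-91 or in DMSO. DMSO is the solvent, all groups were the same cell line grown in RPMI1640 with 10% FBS, and the labels give no dose of SK-3-91. The replicates carry a number and no word on separate cultures, so a p-value here reflects the spread between the libraries as sequenced, which may be technical. All 18 T-lineage markers examined were measured, with a summed level of 5341 to 5866 CPM with SK-3-91 and 8708 to 9236 CPM with DMSO at 8 h. Of the markers of other cell types, 2 of 8 for B cells (BLK and CD79A), 1 of 10 for myeloid cells (CD68), 1 of 8 for fibroblasts or endothelium (PECAM1), 0 of 8 erythroid and 0 of 6 epithelial ones were measured. At 8 h the summed B cell markers had 72.3 to 79.7 CPM with SK-3-91 and 122.8 to 146 CPM with DMSO, PECAM1 had 12.7 to 16.5 against 46.3 to 47.2 CPM, and CD68 had 4.24 to 6.12 against 1.53 to 2.71 CPM. The part of these marker levels in the results was not tested.

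Galactokinase and hexokinase, a pore-forming gasdermin, the CD4 co-receptor, both inosine monophosphate dehydrogenases, both RuvB-like ATPases and cytoplasmic actin are among the 105. The amount of an mRNA is set by its synthesis and its decay, and kinases bear on both, among them those that phosphorylate RNA polymerase II and those that signal to transcription factors and RNA-binding proteins. A targeted degrader joins a ligand of the target to a ligand of a ubiquitin ligase, so that the bound protein is marked for the proteasome. The shared time course is what the rule asked for, and the genes are described below by what their products do.

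ACOT8, a peroxisomal acyl-CoA thioesterase taken as a marker of this time course, did not itself meet the rule. Its centred log2 ratio was 0.2954 at 4 h, just under 0.3, and -0.43 at 8 h. At 1 h it had 38.7, 37.7, 39.0 and 37.2 CPM with SK-3-91, against 39.2, 37.9, 36.9 and 38.1 CPM with DMSO. Its 4 h libraries had 40.5, 39.3, 37.6 and 39.1 CPM with SK-3-91, against 38.7, 41.3, 39.8 and 41.8 CPM with DMSO. At 8 h it had 22.0, 21.9, 21.1 and 20.4 CPM with SK-3-91, against 41.1, 41.3, 39.95 and 44.9 CPM with DMSO. The groups overlapped at 1 h and 4 h, and at 8 h all SK-3-91 libraries lay below all DMSO libraries. The exon bases of ACOT8 lie in exons of a gene on the opposite strand for 35.3% of their length, and whether the counting used strand is not known, so its values are uncertain. Its 1 h log2 fold change was 0.03 ± 0.05 (SE, edgeR adjusted p = 0.68).

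**Figure D1:**
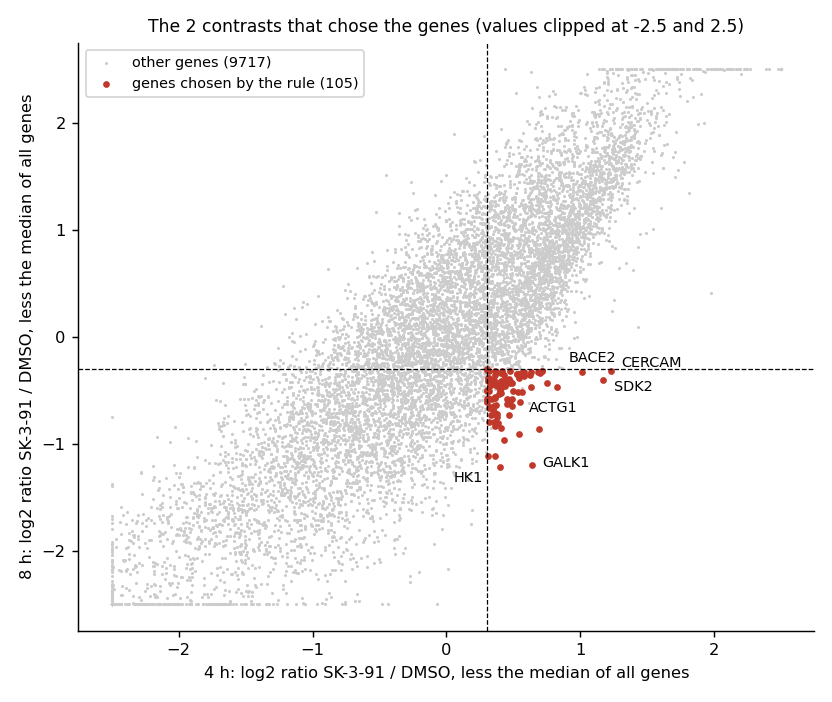
Each point is 1 of 9822 genes, with the centred log2 ratio of SK-3-91 to DMSO at 4 h on the horizontal axis and at 8 h on the vertical axis. The dashed lines are the thresholds of 0.3 and -0.3, and the 105 genes in red fill the edge of the lower right corner, most of them close to a line.

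Many of the choices were close. Of the 105 genes, 48 lay within 0.1 of the 4 h threshold, 32 within 0.1 of the 8 h threshold and 71 within 0.1 of either. The gene just inside at 4 h was H2AZ1, a histone variant, at 0.3001, and the gene just outside was FKBP4, a co-chaperone, at 0.2991. At 8 h the gene just inside was BEX2 at -0.301, and the one just outside was CANX, an endoplasmic reticulum chaperone, at -0.295. A further 73 genes missed the 4 h threshold by less than 0.1, and 51 missed the 8 h threshold by less than 0.1. Leaving out 1 of the 16 libraries of 4 h and 8 h in turn gave 98 to 125 genes, and 69 of the 105 were chosen in every one of those 16 repeats.

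The higher level at 4 h is a level relative to other genes. CPM is a share of a library, and cell number or RNA per cell cannot be told apart from it. Before centring, the median log2 ratio of the 105 genes was 0.07 at 4 h, with 82 above 0 and 10 at 0.3 or more, and -0.98 at 8 h. The lowest 4 h value was -0.04, since the threshold and the centring set a floor there. Nothing is read from these counts, which have no share of all genes beside them. The median over all genes was -0.34 at 4 h and -0.53 at 8 h, and -0.01 at 1 h. At 4 h their plain CPM was therefore close to that in DMSO while the CPM of the median gene was lower. Counted reads per library were 13.6 megareads with SK-3-91 against 14.01 to 14.3 megareads with DMSO at 1 h, 10.6 to 10.9 against 14.3 to 14.5 megareads at 4 h, and 6.86 to 8.96 against 13.6 to 14.6 megareads at 8 h. The part of this difference in depth in the time course was not tested. Without centring, the same thresholds took 85 genes, 10 of them among the 105. RLE-scaled CPM took 108 genes, 102 of them among the 105. RLE scaling also sets its zero by a median over genes, so it nearly repeats the centring and its overlap is no separate support. TMM-scaled CPM, the scaling of the fit used at 1 h, took 125 genes without centring, 78 of them among the 105.

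The promoters of some of the genes with the widest swing are shown to give the sequence at the start of genes described in every library or by their group means below. Of the 105 genes, 84 had an entry in RefSeq's promoter table, in windows of equal length around transcription starts in build GRCh38.p14. The 4 below are the first, by swing, of the 12 genes with the widest swing that had a single window in the table, each written 5′ to 3′ on the gene's strand. Capitals mark matches to any of 9 motifs on either strand: the GC box GGGCGG, the CCAAT box CCAAT, the TATA box TATAAA, an ETS site CCGGAAGT, a cyclic AMP response element TGACGTCA, an NRF1 core GCATGCGC, a YY1 site AAGATGG, an E-box CACGTG and a ZNF143 part ACTACAA.
GALK1, chr17:75765143-75765442, minus strand: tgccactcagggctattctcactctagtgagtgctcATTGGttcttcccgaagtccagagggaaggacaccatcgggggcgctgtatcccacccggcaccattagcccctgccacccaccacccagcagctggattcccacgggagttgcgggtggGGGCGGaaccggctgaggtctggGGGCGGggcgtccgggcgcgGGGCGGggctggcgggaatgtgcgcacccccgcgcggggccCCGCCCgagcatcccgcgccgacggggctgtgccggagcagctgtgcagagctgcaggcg
GSDME, chr7:24757415-24757714, minus strand: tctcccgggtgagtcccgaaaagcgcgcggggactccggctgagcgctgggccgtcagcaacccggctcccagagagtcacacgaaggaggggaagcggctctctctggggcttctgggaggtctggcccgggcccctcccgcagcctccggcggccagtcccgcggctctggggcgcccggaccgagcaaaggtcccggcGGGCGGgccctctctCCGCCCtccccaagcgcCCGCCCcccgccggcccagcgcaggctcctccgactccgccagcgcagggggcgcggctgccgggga
BLVRA, chr7:43758430-43758729, plus strand: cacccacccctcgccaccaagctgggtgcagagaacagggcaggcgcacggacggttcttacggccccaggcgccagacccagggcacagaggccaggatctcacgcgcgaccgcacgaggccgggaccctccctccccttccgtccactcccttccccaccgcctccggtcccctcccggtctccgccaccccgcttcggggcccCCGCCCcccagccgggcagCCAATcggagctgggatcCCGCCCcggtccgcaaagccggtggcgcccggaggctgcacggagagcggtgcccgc
CABP7, chr22:29719753-29720052, plus strand: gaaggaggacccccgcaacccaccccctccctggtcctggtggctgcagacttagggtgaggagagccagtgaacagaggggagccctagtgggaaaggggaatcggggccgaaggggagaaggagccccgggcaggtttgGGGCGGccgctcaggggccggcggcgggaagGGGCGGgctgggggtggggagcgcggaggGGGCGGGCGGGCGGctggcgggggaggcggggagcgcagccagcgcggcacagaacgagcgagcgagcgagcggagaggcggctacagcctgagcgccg
All 4 windows are rich in G and C, at 71% for GALK1, 77% for GSDME, 75% for BLVRA and 74.7% for CABP7. They hold 4, 3, 2 and 5 GC boxes in that order, those of CABP7 partly overlapping, and GALK1 and BLVRA hold 1 CCAAT box each. None of the other 7 motifs matched in these 4 windows. Across the windows of the 105 genes, 69.9% held a GC box, against 67.0% of the windows of all genes in the series, and 40.7% against 35.2% held a CCAAT box. An E-box was in 13.01% against 9.91%, an ETS site in 9.76% against 8.13% and a TATA box in 5.69% against 5.67%. The median window was 66% G and C for the 105 genes and 65% for all genes of the series. These shares were close together and are a description of letters, with no test.

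GALK1, which phosphorylates galactose in the first step of its use, had the widest swing, defined as the 4 h centred log2 ratio less the 8 h one, at 1.84. At 1 h it had 35.7, 32.8, 35.7 and 31.5 CPM with SK-3-91, against 28.4, 32.6, 28.8 and 30.0 CPM with DMSO. At 4 h it had 31.0, 37.8, 28.6 and 34.96 CPM with SK-3-91, against 25.6, 29.5, 24.8 and 27.6 CPM with DMSO. At 8 h it had 8.88, 10.3, 9.47 and 6.84 CPM with SK-3-91, against 28.7, 30.1, 27.6 and 35.6 CPM with DMSO. The groups overlapped at 1 h and at 4 h, while at 8 h the highest SK-3-91 library was far below the lowest DMSO library. The fitted log2 fold change was 0.60 ± 0.08 at 4 h and -1.35 ± 0.11 at 8 h (SE, n = 4 per group). The fit uses TMM scaling, so it differs from the plain CPM above, whose log2 ratio before centring was 0.30 at 4 h and -1.73 at 8 h. Since these 2 contrasts chose the gene, these values are a description.

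HK1, a hexokinase that phosphorylates glucose as it enters glycolysis, had the lowest centred ratio at 8 h, -1.22. Its 1 h libraries had 173, 177, 162 and 169 CPM with SK-3-91, against 143, 143, 151 and 148 CPM with DMSO. Its 4 h libraries had 151, 140, 148 and 143 CPM with SK-3-91, against 136, 135, 147 and 140.1 CPM with DMSO. Its 8 h libraries had 65.6, 70.4, 67.6 and 63.3 CPM with SK-3-91, against 221, 222, 226 and 231 CPM with DMSO. The 1 h groups did not overlap and the 4 h groups did. At 8 h the SK-3-91 libraries were low and the DMSO libraries were the highest of the 6 groups, so both arms widened the gap. The fitted log2 fold change, with TMM scaling, was 0.36 ± 0.04 at 4 h and -1.32 ± 0.05 at 8 h (SE). In plain CPM the log2 ratio before centring was 0.06 at 4 h and -1.74 at 8 h.

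SDK2, a cell adhesion molecule of the immunoglobulin superfamily, had lower levels at 4 h than at 1 h in both arms. At 1 h it had 36.7, 41.0, 33.4 and 33.3 CPM with SK-3-91, against 27.0, 29.3, 30.8 and 28.0 CPM with DMSO. At 4 h it had 21.3, 19.01, 18.98 and 17.8 CPM with SK-3-91, against 10.0, 10.4, 10.997 and 11.1 CPM with DMSO. At 8 h it had 10.0, 11.04, 9.18 and 10.3 CPM with SK-3-91, against 19.97, 19.3, 19.5 and 20.6 CPM with DMSO. The groups were apart at every time, above DMSO at 1 h and 4 h and below it at 8 h. The SK-3-91 mean was 10.1 ± 0.769 CPM at 8 h and 19.3 ± 1.43 CPM at 4 h (SD, n = 4), while the DMSO mean was 19.8 ± 0.574 CPM at 8 h and 10.6 ± 0.524 CPM at 4 h, so the 2 arms exchanged places.

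GSDME, a gasdermin that forms membrane pores after cleavage by caspase-3, is a low transcript here. It had 10.1, 12.97, 12.5 and 11.3 CPM with SK-3-91 at 1 h, against 8.52, 11.4, 11.2 and 9.99 CPM with DMSO. The 4 h values were 9.15, 12.9, 9.77 and 10.6 CPM with SK-3-91, against 7.53, 8.39, 8.11 and 8.83 CPM with DMSO. At 8 h it had 5.17, 2.90, 4.08 and 2.95 CPM with SK-3-91, against 10.5, 11.97, 10.5 and 10.0 CPM with DMSO. Its 1 h groups overlapped and its 4 h and 8 h groups did not. The fitted log2 fold change, with TMM scaling, was 0.67 ± 0.12 at 4 h and -1.08 ± 0.16 at 8 h (SE). Its log2 ratio before centring was 0.35 at 4 h and -1.39 at 8 h.

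CERCAM, named for adhesion of cerebral endothelial cells, had the highest centred ratio at 4 h, 1.23, and its levels differed more between times in DMSO than in SK-3-91. With SK-3-91 it had 18.9, 19.7, 18.1 and 18.3 CPM at 1 h, 20.8, 21.9, 18.1 and 17.4 CPM at 4 h, and 17.6, 15.6, 12.1 and 16.6 CPM at 8 h. With DMSO it had 16.7, 15.9, 19.6 and 16.7 CPM at 1 h, 9.05, 9.499, 11.5 and 11.4 CPM at 4 h, and 28.2, 26.1, 25.6 and 33.3 CPM at 8 h. The SK-3-91 libraries stayed between 12.1 and 21.9 CPM throughout, while the DMSO libraries were lowest at 4 h and highest at 8 h.

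**Figure D2:**
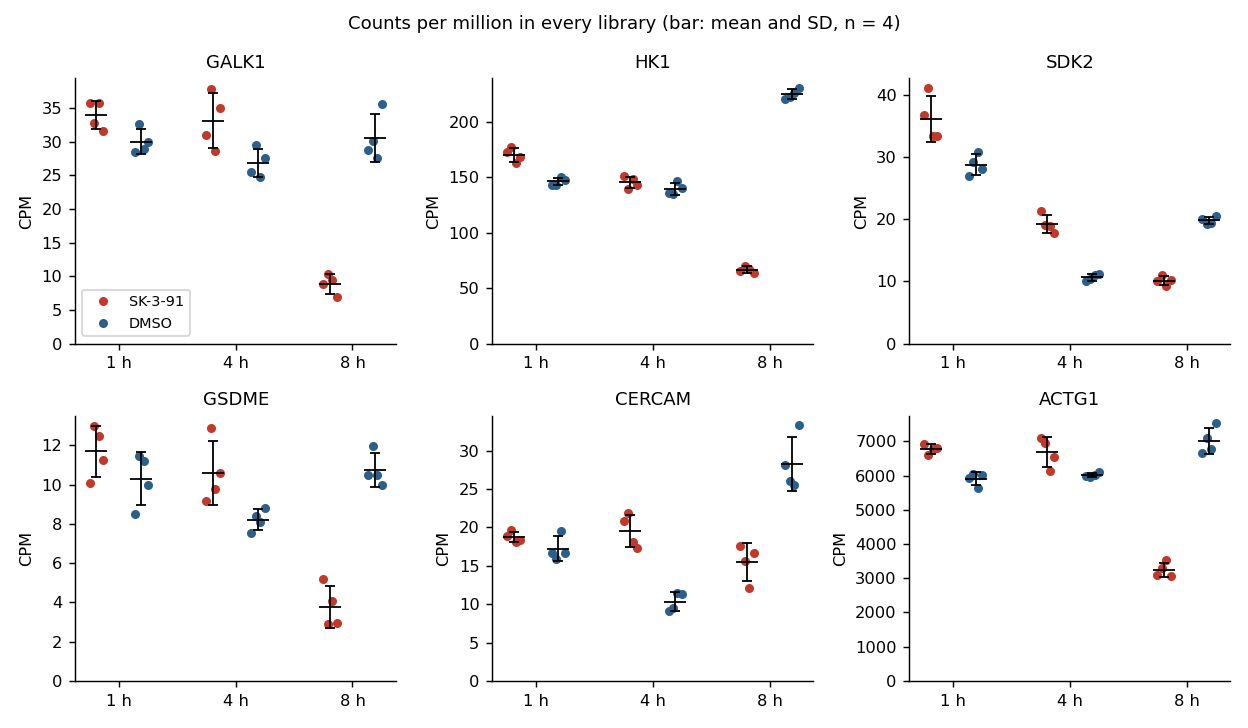
CPM of 6 of the genes in every library, with SK-3-91 in red to the left of DMSO in blue at 1, 4 and 8 h. Points are libraries, and bars are the mean and SD (n = 4). At 8 h the SK-3-91 libraries lie below the DMSO libraries in all 6 panels. The DMSO mean at 8 h is above that at 4 h in all 6 as well, by a log2 ratio of 1.41 in CERCAM, 0.87 in SDK2, 0.69 in HK1, 0.37 in GSDME, 0.22 in ACTG1 and 0.18 in GALK1.

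Among the other genes with the widest swing, BLVRA, which reduces biliverdin to bilirubin, averaged 28.4 ± 2.71 CPM with SK-3-91 and 28.0 ± 1.14 CPM with DMSO at 4 h, and 10.2 ± 1.15 against 32.9 ± 2.39 CPM at 8 h (SD, n = 4 each). CABP7, a calcium-binding protein, averaged 13.3 ± 1.18 CPM with SK-3-91 and 13.6 ± 1.87 CPM with DMSO at 4 h, and 4.58 ± 0.99 against 15.4 ± 1.803 CPM at 8 h. MPG, a DNA glycosylase that removes alkylated bases, averaged 29.5 ± 2.58 against 27.7 ± 2.67 CPM at 4 h and 10.8 ± 1.51 against 31.5 ± 1.99 CPM at 8 h in the same order of groups. These 3 genes were level with DMSO at 4 h and about a factor of 3 below it at 8 h. MPG is uncertain, with 27.3% of its exon bases in exons on the opposite strand. BACE2, a membrane protease related to beta-secretase, averaged 94.7 ± 5.85 CPM with SK-3-91 and 59.3 ± 3.25 CPM with DMSO at 4 h, and 56.6 ± 2.599 against 103.1 ± 5.80 CPM at 8 h. CD4, the co-receptor for class II antigen presentation, averaged 17.2 ± 2.77 CPM with SK-3-91 and 12.1 ± 0.877 CPM with DMSO at 4 h, and 11.4 ± 1.72 against 23.3 ± 1.44 CPM at 8 h. BACE2 and CD4 differed from the first 3 in that their groups were apart at 4 h as well as at 8 h. SPG21, or maspardin, averaged 106.3 ± 5.11 CPM with SK-3-91 and 104.6 ± 2.74 CPM with DMSO at 4 h, and 41.1 ± 4.87 against 106.4 ± 5.31 CPM at 8 h.

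The swing was also split by arm, as a description. The rule used the 4 h and 8 h means of both arms, so the choice itself favours a fall with SK-3-91 and a rise with DMSO. The counts below have no share of all genes beside them and describe the 105 alone. From 4 h to 8 h the log2 ratio of mean CPM within the SK-3-91 libraries had a median of -0.99 over the 105 genes, and that within the DMSO libraries had a median of 0.12. Less the median of all genes, these were -0.87 and 0.14. On that scale the quartiles of all genes were -0.36 and 0.36 with SK-3-91, and -0.10 and 0.10 with DMSO. The SK-3-91 ratio was -0.3 or lower in 103 genes, the exceptions being LGMN and OLMALINC. The DMSO ratio was 0.3 or higher in 19 genes, and in 10 of these it was above 0.65. In 8 of those 10, CERCAM (1.41), LGMN (1.16), OLMALINC (0.95), EPS8L2 (0.94), JAM3 (0.93), CD4 (0.91), BACE2 (0.79) and SPOCK2 (0.69), the DMSO value was larger in size than the SK-3-91 value. Genes in this paragraph outside the 12 widest swings and the least abundant genes were named after their values were seen. LGMN, a lysosomal cysteine protease, averaged 52.9 ± 8.16 CPM with SK-3-91 and 116.8 ± 3.18 CPM with DMSO at 8 h, and 60.0 ± 2.01 against 51.9 ± 2.46 CPM at 4 h. JAM3, a junctional adhesion molecule, averaged 184.1 ± 6.43 CPM with SK-3-91 and 379 ± 17.8 CPM with DMSO at 8 h, and 232 ± 5.64 against 199 ± 11.1 CPM at 4 h. In both, the SK-3-91 means of 4 h and 8 h lay closer together than the DMSO means did. OLMALINC, a long noncoding RNA, is uncertain since it shares 39.5% of its 32-base words with other genes.

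**Figure D3:**
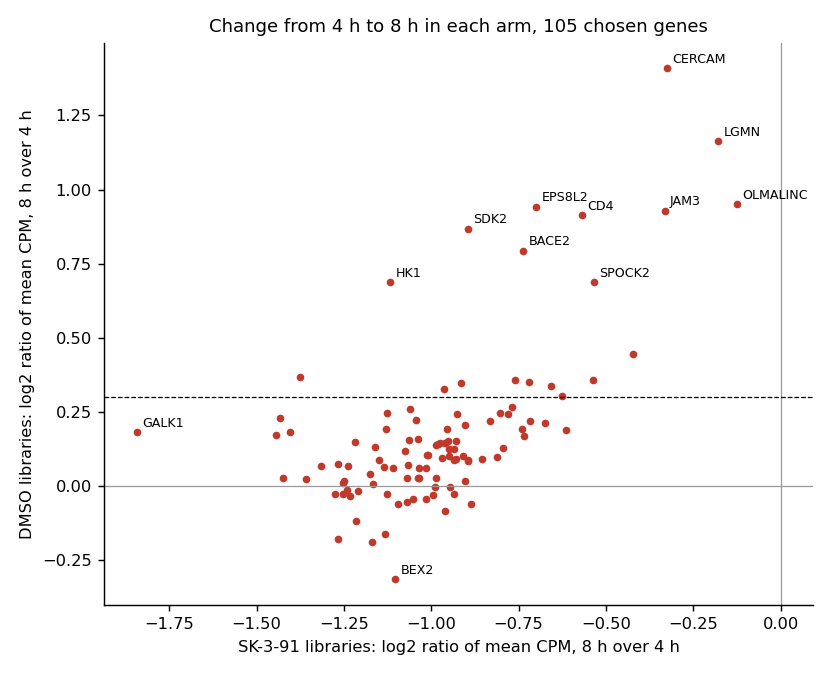
Each point is 1 of the 105 genes, with the log2 ratio of mean CPM at 8 h over 4 h in the SK-3-91 libraries on the horizontal axis and in the DMSO libraries on the vertical axis. Most points sit near 0 on the vertical axis and near the median of -0.99 on the horizontal axis, while CERCAM, LGMN, OLMALINC, JAM3, EPS8L2, CD4, SDK2, BACE2, HK1 and SPOCK2 lie above 0.65 in DMSO. The dashed line marks 0.3.

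At 8 h all 4 SK-3-91 libraries were below all 4 DMSO libraries in 105 of the 105 genes in plain CPM, and the same was true of 59.6% of all genes. At 4 h all SK-3-91 libraries were above all DMSO libraries in 25 of the 105, against 27.2% of all genes. The rule used both contrasts, so nothing is read from these shares. The 25 include SDK2, GSDME, CERCAM, BACE2, CD4, ACTG1, IMPDH2 and STOML2. Only 4 genes had an 8 h centred ratio of -1 or lower, GALK1, HK1, BLVRA and CABP7, and only 3 had a 4 h one of 1 or higher, SDK2, CERCAM and BACE2. The lowest ratios at 8 h and the highest at 4 h were thus in different genes.

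The 1 h libraries did not enter the rule, and there the genes were already mostly higher with SK-3-91. With edgeR's quasi-likelihood test adjusted over all 9822 genes, 81 of the 105 rose at an adjusted p under 0.05, against 24.9% of all genes, and 0 fell, against 29.4% of all genes. At an unadjusted p under 0.05, 87 were higher and 0 lower, and DESeq2 and limma also called 0 lower. No share of all genes is given for these criteria, so nothing further is read from them. The changes were small. The median fitted log2 fold change was 0.19, a factor of 1.14, with a range of -0.01 to 0.43, against a median of 0.01 over all genes. All 4 SK-3-91 libraries were above all DMSO libraries at 1 h in 60 of the 105, against 18.5% of all genes, and below them in 0, against 30.3% of all genes. Tested against a minimum fold of 1.5, none of the 105 was called and 5 of all genes were higher. RLE factors called 91 of the 105 higher, against 33.1% of all genes, and no scaling factors called 70, against 20.2%.

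Other genes that were high at 4 h also tended to rise at 1 h. Of the 3352 genes past the 4 h threshold alone, 47.1% rose at 1 h and 13.3% fell, with a median log2 fold change of 0.13. Of the 3379 genes past the 8 h threshold alone, 13.2% rose and 35.6% fell, with a median of -0.05. Of the 10 genes set aside by symbol, 7 rose and 0 fell, with a median of 0.20. Of the 114 genes with the mirror pattern, below the median gene at 4 h and above it at 8 h, 1 rose and 77 fell, with a median of -0.27. Whether the 105 genes differ from genes of like level at 4 h was not tested.

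**Figure D4:**
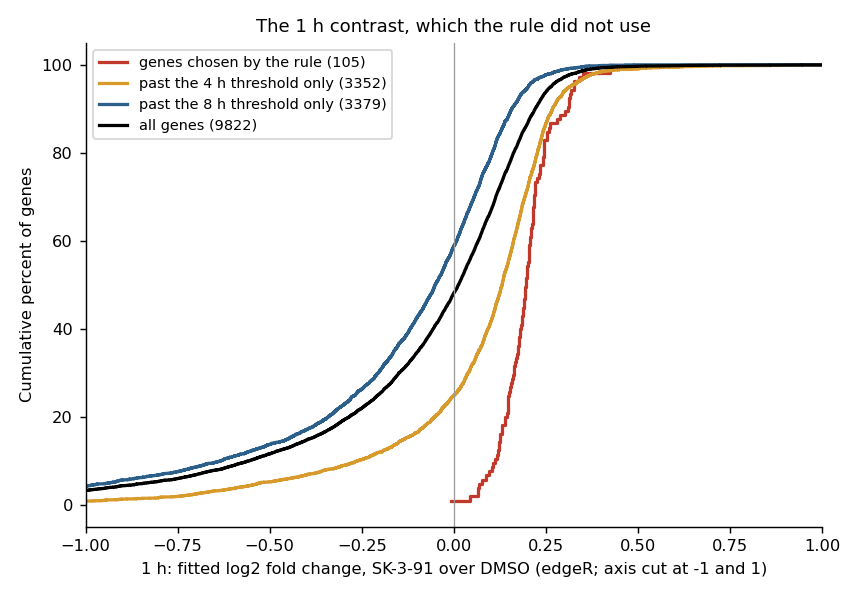
Cumulative percent of genes against the fitted 1 h log2 fold change, SK-3-91 over DMSO, for the 105 genes in red, the genes past the 4 h threshold alone, the genes past the 8 h threshold alone and all genes. The red curve is steep and lies almost wholly right of 0, with its median at 0.19, while the curve of all genes crosses the middle at 0.01.

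The largest 1 h increases among the 105 with non-overlapping groups were in SDK2, DPH6, WASHC3, NSMCE1, FAHD2A, HIKESHI, POLR3GL and MVB12A. SDK2, whose libraries are given above, rose by 0.35 ± 0.06 on the log2 scale (SE, edgeR adjusted p = 1.5e-05). DPH6, an enzyme of diphthamide synthesis on elongation factor 2, had 19.2, 19.9, 18.05 and 18.1 CPM with SK-3-91 at 1 h, against 16.6, 16.1, 13.3 and 14.95 CPM with DMSO (0.33 ± 0.09, edgeR adjusted p = 0.0017). Its 4 h libraries had 15.8, 16.4, 14.4 and 16.3 CPM with SK-3-91, against 15.8, 17.1, 16.01 and 15.8 CPM with DMSO, and its 8 h libraries had 7.31, 7.59, 5.39 and 5.66 CPM, against 15.4, 17.5, 14.6 and 11.9 CPM. DPH6 was thus above DMSO at 1 h in every library, overlapping at 4 h and below at 8 h in plain CPM. WASHC3, a subunit of the WASH complex that builds actin on endosomes, had 20.2, 19.6, 18.8 and 20.003 CPM with SK-3-91 at 1 h, against 16.001, 17.0, 16.1 and 14.7 CPM with DMSO (0.33 ± 0.08, edgeR adjusted p = 0.0011). At 4 h it had 17.8, 20.2, 17.6 and 17.2 CPM with SK-3-91, against 15.5, 19.1, 18.4 and 16.3 CPM with DMSO, and at 8 h 8.99, 10.3, 10.8 and 11.6 CPM, against 17.4, 21.9, 20.3 and 22.8 CPM. It followed the same order as DPH6.

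The remaining 5 rose by similar amounts at 1 h. NSMCE1, a ubiquitin ligase subunit of the SMC5-SMC6 complex, averaged 58.5 ± 3.38 CPM with SK-3-91 and 47.7 ± 3.11 CPM with DMSO (SD, n = 4 each; edgeR adjusted p = 1e-05). MVB12A, a subunit of the endosomal complex ESCRT-I, averaged 38.1 ± 1.36 CPM with SK-3-91 and 31.2 ± 2.91 CPM with DMSO (edgeR adjusted p = 8.2e-05). FAHD2A averaged 13.3 ± 0.80 CPM with SK-3-91 and 10.9 ± 1.07 CPM with DMSO (edgeR adjusted p = 0.004). HIKESHI, which carries HSP70 into the nucleus, and POLR3GL, a subunit of RNA polymerase III, rose by 0.31 ± 0.07 each. Both are uncertain, sharing 23.8% and 25.9% of their 32-base words with other genes. Of the 12 genes with the widest swing, 9 rose at 1 h and GSDME, CERCAM and CABP7 did not pass the test, with values of 0.21 ± 0.11, 0.15 ± 0.09 and 0.18 ± 0.10 (edgeR adjusted p = 0.1, 0.18 and 0.11). The calls of GALK1 and BLVRA were near the threshold (edgeR adjusted p = 0.029 and 0.045). That of GALK1 was lost without DMSO 1 h replicate 1 or 3 or SK-3-91 1 h replicate 1 or 3, and that of BLVRA without any one of DMSO 1 h replicates 1, 3 and 4 and SK-3-91 1 h replicates 1, 2 and 3, with adjusted p-values up to 0.088 and 0.16. CD4 lost its call (edgeR adjusted p = 0.016) without SK-3-91 1 h replicate 3, at 0.062. In all, 24 of the 105 did not pass, among them MCM2, NASP, HERC5, HEBP1 and HEBP2, a selection named after their values were seen.

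Ordered by function, the lists of genes held 37 of the 105, and 68 were in none. The 37 were 1.04% of the 3543 listed genes, and the 105 are 1.07% of all genes, so membership in the lists as a whole was at the background. At 1 h, as given above, 24.9% of all genes rose and 29.4% fell, which is the background for the counts of each list. Nucleotide metabolism had 4 of its 63 measured genes among the 105, and all 4 rose at 1 h. ADA, also in this list, passed both thresholds and was set aside by its symbol. In the whole list 34 rose and 8 fell at 1 h (edgeR, adjusted over all genes), with a median log2 fold change of 0.11 against 0.01 over all genes. IMPDH2, the main enzyme of the rate-limiting step of guanine nucleotide synthesis, had 442, 445, 445 and 453 CPM with SK-3-91 at 1 h, against 383, 388, 378 and 381 CPM with DMSO. At 4 h IMPDH2 had 457, 446, 420.0 and 423 CPM with SK-3-91, against 364, 380.0, 373 and 386 CPM with DMSO, and at 8 h 209, 224, 247 and 235 CPM, against 401, 425, 418 and 426 CPM. The groups did not overlap at any of the 3 times, and the 1 h increase was 0.24 ± 0.04 (SE, edgeR adjusted p = 2.5e-06). Its paralogue IMPDH1 averaged 72.8 ± 4.38 CPM with SK-3-91 and 67.5 ± 3.12 CPM with DMSO at 4 h, and 34.6 ± 3.15 against 75.3 ± 3.39 CPM at 8 h. IMPDH1 shares 22.5% of its words with other genes and is uncertain. DTYMK, the thymidylate kinase, rose by 0.20 ± 0.05 at 1 h, and NT5C3B, a nucleotidase, by 0.18 ± 0.05. At 8 h DTYMK averaged 61.7 ± 3.27 CPM with SK-3-91 and 133 ± 9.59 CPM with DMSO, and NT5C3B 44.7 ± 1.38 against 80.7 ± 3.47 CPM.

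Of 60 measured genes of glycolysis, the citric acid cycle and the pentose phosphate pathway, HK1, ME2 and MPC1 were among the 105. All 3 rose at 1 h, as did 40 of the list, while 6 of the list fell (edgeR, median 0.20). ME2, the mitochondrial NAD-dependent malic enzyme, averaged 202 ± 3.61 CPM with SK-3-91 and 200.4 ± 6.10 CPM with DMSO at 4 h, and 111.6 ± 7.96 against 214 ± 7.19 CPM at 8 h. MPC1, part of the carrier that takes pyruvate into mitochondria, averaged 70.8 ± 5.36 CPM with SK-3-91 and 69.3 ± 2.69 CPM with DMSO at 4 h, and 29.9 ± 1.38 against 67.7 ± 2.43 CPM at 8 h. Both were level at 4 h in plain CPM and lower at 8 h. Over the whole list, these 3 included, the median centred ratio was 0.71 at 4 h and 0.52 at 8 h, and 11 of the 60 genes were at -0.3 or lower at 8 h, as the rule required of the 3.

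Of 139 measured histone-modifying enzymes and remodellers, RUVBL1, RUVBL2 and SMARCA2 were chosen. RUVBL1 and RUVBL2 are AAA+ ATPases that assemble into a joint ring found in the INO80 and TIP60 complexes, and SMARCA2 is an ATPase of the SWI/SNF remodeller. RUVBL1 averaged 212 ± 5.50 CPM with SK-3-91 and 214 ± 1.61 CPM with DMSO at 4 h, and 105.9 ± 2.47 against 209 ± 5.82 CPM at 8 h. RUVBL2 averaged 223 ± 4.53 CPM with SK-3-91 and 221 ± 4.63 CPM with DMSO at 4 h, and 92.4 ± 7.41 against 233 ± 16.2 CPM at 8 h. For both, the SK-3-91 and DMSO libraries overlapped at 4 h in plain CPM and all SK-3-91 libraries were below all DMSO libraries at 8 h. All 3 genes rose at 1 h, by 0.19 ± 0.03, 0.18 ± 0.05 and 0.15 ± 0.05 on the log2 scale for RUVBL1, RUVBL2 and SMARCA2, whereas 28 of the list rose and 62 fell (edgeR, median -0.09).

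Of 266 vesicle traffic genes, TBC1D16, SNX17, COMMD7 and SNX14 were chosen, a Rab GTPase-activating protein, a sorting nexin of endosomal recycling, a COMMD family member and another sorting nexin. All 4 rose at 1 h, by 0.26 ± 0.08, 0.13 ± 0.05, 0.16 ± 0.06 and 0.25 ± 0.08 on the log2 scale in that order (SE, edgeR adjusted p = 0.0054, 0.036, 0.019 and 0.01). In the list as a whole 74 rose and 67 fell, with a median of 0.02. COMMD7 shares 36.0% of its words with other genes and is uncertain.

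The DNA replication list gave MCM2 and MCM4, both subunits of the MCM2 to MCM7 helicase ring, and the other subunits did not meet the rule. MCM4 averaged 713 ± 22.4 CPM with SK-3-91 and 682 ± 10.7 CPM with DMSO at 4 h, and 265 ± 20.2 against 694 ± 19.1 CPM at 8 h. MCM4 rose by 0.12 ± 0.04 at 1 h (edgeR adjusted p = 0.011), while MCM2 had 0.04 ± 0.04 (edgeR adjusted p = 0.37). The centred ratio of MCM5 was 0.56 at 4 h and -0.10 at 8 h and that of MCM7 0.47 and -0.10, so that both passed the 4 h threshold alone. That of MCM3 was -0.26 at 4 h and -1.41 at 8 h and that of MCM6 -0.18 and -1.64, so that both passed the 8 h threshold alone. The ring's subunits thus spread over 3 classes of the rule. In plain CPM the 8 h mean of every subunit was lower with SK-3-91. The median gene was lower too, at a log2 ratio of -0.53 before centring. MCM5 had 351 against 542 CPM with DMSO, and MCM7 had 789 against 1218 CPM. Their centred ratios of -0.10 lay near that median. MCM2 is uncertain, with 23.6% of its exon bases in exons on the opposite strand.

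The other lists that held chosen genes gave 1 or 2 each, and the genes named from them here, like MCM2 and MCM4, were named after their values were seen. Of 295 protein kinases measured, the class that the labels give as the target of SK-3-91, MAP2K2 and MAPKAPK3 were chosen. MAP2K2, which phosphorylates ERK kinases, averaged 162 ± 10.8 CPM with SK-3-91 and 141 ± 2.84 CPM with DMSO at 4 h, and 81.9 ± 4.86 against 155 ± 13.6 CPM at 8 h. MAPKAPK3, a kinase downstream of p38, averaged 103.7 ± 4.32 CPM with SK-3-91 and 94.9 ± 3.19 CPM with DMSO at 4 h, and 59.1 ± 1.99 against 112.6 ± 3.94 CPM at 8 h. The 4 h groups of both were apart, and both rose at 1 h, by 0.16 ± 0.05 and 0.22 ± 0.04 on the log2 scale. Among all 295 kinases 60 rose and 95 fell at 1 h (edgeR), with a median log2 fold change of -0.01. MAP2K2 shares 22.7% of its words with other genes and is uncertain. Other lists gave BAD, which promotes apoptosis by binding BCL-2 proteins, GNPAT of ether lipid synthesis, ACOT9, a mitochondrial relative of ACOT8, PMVK of the mevalonate pathway, MPI, which links mannose to fructose phosphate, DDB2, a damage-recognition protein, and EXOSC5 of the RNA exosome. Among the 10 lists with no chosen gene were cytosolic ribosome (71 measured), splicing (89), ribosome biogenesis (96), translation factor (64) and mitosis and cell cycle (126). CDK4, in the mitosis and cell cycle list, passed both thresholds and was set aside by its symbol. The 105 are 1.07% of all genes, a share at which lists of these sizes hold few or no genes. Nothing is read from the empty lists.

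Levels among the 105 spanned a wide range. Per kilobase of the deposited gene width, the highest mean DMSO level was that of ACTG1 at 2838 CPM per kb, followed by IMPDH2 at 199, H2AZ1 at 169, STOML2 at 141.9 and MCM4 at 141.6. STOML2 is a mitochondrial inner membrane protein. The lowest were CLTCL1, a clathrin heavy chain, at 0.429, GK, glycerol kinase, at 0.673 and EPS8L2, an actin regulator, at 0.726 CPM per kb. ACTG1, cytoplasmic gamma-actin, had 6931, 6600, 6773 and 6798 CPM with SK-3-91 at 1 h, against 5914, 6051, 5649 and 6014 CPM with DMSO. At 4 h it had 7108, 6940.3, 6141 and 6551 CPM with SK-3-91, against 5984, 5966, 6006 and 6117 CPM with DMSO, and at 8 h 3093, 3301, 3518 and 3066 CPM, against 6664, 7109, 6772 and 7521 CPM. The groups were apart at each time, and the 1 h increase was 0.22 ± 0.05 (edgeR adjusted p = 0.00012). ACTG1 shares 16.1% of its words with other genes.

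ACTG1 alone held a large part of the group's reads. Together the 105 genes took 1.79 ± 0.027% of counts with SK-3-91 and 1.59 ± 0.031% with DMSO at 1 h, 1.68 ± 0.068% against 1.56 ± 0.018% at 4 h, and 0.824 ± 0.039% against 1.74 ± 0.058% at 8 h (SD, n = 4 each). Without ACTG1 they took 1.11 ± 0.014% with SK-3-91 and 0.999 ± 0.015% with DMSO at 1 h, 1.01 ± 0.026% against 0.955 ± 0.013% at 4 h, and 0.50 ± 0.018% against 1.04 ± 0.019% at 8 h. The order of the groups was the same with and without it. Scaled to the DMSO 1 h mean and to the median of all genes in each library, the median gene of the group stood at 0.19 ± 0.04 log2 units with SK-3-91 and at 0.00 ± 0.03 with DMSO at 1 h, at 0.39 ± 0.05 against -0.03 ± 0.03 at 4 h, and at -0.39 ± 0.07 against 0.11 ± 0.05 at 8 h.

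**Figure D5:**
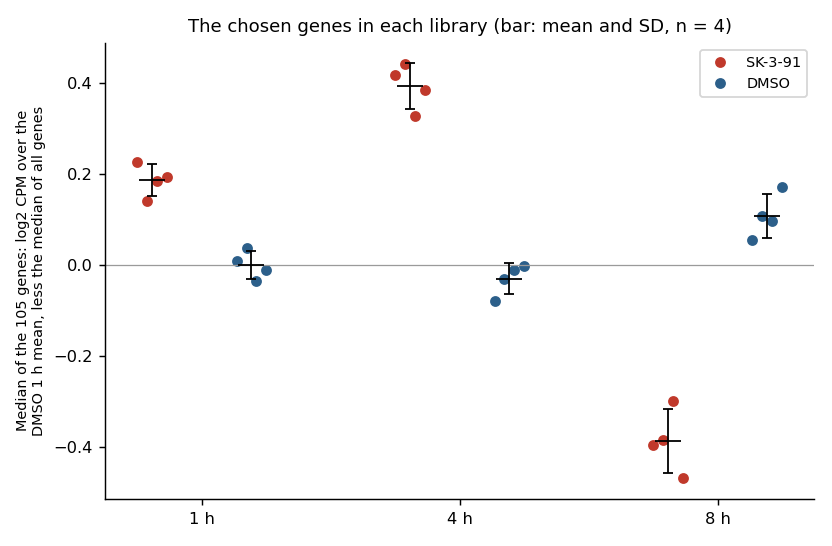
The median over the 105 genes of log2 CPM relative to the DMSO 1 h mean, less the same median over all genes, in each of the 24 libraries. SK-3-91 in red stands left of DMSO in blue, and bars are the mean and SD (n = 4). The SK-3-91 libraries are above the DMSO libraries at 1 h and 4 h and below them at 8 h, and the DMSO libraries at 8 h are above those at 1 h and 4 h.

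The median transcript of the 105 genes was shorter than that of the series, a description with no test. Each gene was measured on its annotated transcript with the longest coding part, or on its longest transcript where none had a complete coding part. That transcript had a median of 2009 bases for the 105 genes. The medians were 2766 for the genes past the 4 h threshold alone, 3051 for those past the 8 h threshold alone and 3128.5 for all 9766 genes matched to the annotation. The 3′ untranslated region had a median of 469.5 bases, against 781, 1019.5 and 1024 in the same classes, and the coding part 1113 bases, against 1287, 1422 and 1449. The median G and C content was 53.0%, against 50.1%, 49.6% and 48.5%. The quartiles of the 3′ untranslated regions ran from 228.5 to 890.25 bases in the 105 genes and from 385 to 2333 bases in all genes, so the ranges overlap widely. The number of exons had a median of 9 in the 105 genes and 9 in all genes. The median DMSO level was 25.8 CPM per kb in the 105 genes, against 16.6, 12.5 and 13.2 in those classes. Gene length, sequence content and level move together across genes, and their part in the time course was not tested.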

How the data were processed

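RNA was measured in 24 libraries of MOLT4 cells by single-end sequencing of 50 bases on the BGISEQ-500, per the labels' protocols. The authors' deposited table holds raw read counts per Entrez gene. Per the submitters' processing notes, edgeR and build hg19 were used; no source used here names the aligner, counter or strand setting. A second deposited table holds log2 values; taken out of the log, each library's values are a straight line in its counts, so gene length is not in them. Both hold the same 9822 genes.

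CPM were computed from all counts of a library (6.86 to 14.6 megareads). The genes and gene lists were chosen with earlier results of these data known, so the 4 h and 8 h contrasts give no test. The 1 h contrast was tested on counts in R 4.3.3 with edgeR 4.0.16, using TMM scaling, filterByExpr (0 genes removed), 6 group means over 24 libraries, quasi-likelihood F test, Benjamini-Hochberg adjustment over 9822 genes at 0.05. The procedure was tested on simulated data. DESeq2 1.42.0 and limma 3.58.1 were alternatives. Standard errors of 4 h and 8 h come from the same fit.

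Genes named are the 12 with the widest swing and at least 5 CPM, the 8 largest 1 h increases with groups apart, the 5 highest and 3 lowest levels per kb, up to 4 from each list with at least 3 chosen genes, those beside the thresholds, and ACOT8; others are marked in the text as named after their values were seen. A gene is called uncertain where 20% or more of its 32-base words lie in other genes, or of its exon bases in exons on the opposite strand (21 of 105). GENCODE release 29 gave lengths and overlaps; since its build differs from hg19, no coordinates of the counted features are given. Same-numbered libraries did not deviate together (correlations of -0.13 to 0.03), so numbers were not taken as pairs. Some genes are not reported here.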

Additional observations from a re-analysis of the deposited data

How the results depend on the processing

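At 1 h the count of the 105 genes called higher stayed within a factor of 1.5 of 81, from 65 with limma-trend on the deposited log2 values, an alternative chosen after seeing the data, to 91 with RLE factors, except that a minimum fold of 1.5 gave 0. That minimum fold called 0.0509% of all genes higher, so its 0 says little. No share of all genes is given for limma-trend, so nothing is read from its 65. Genes called lower were 0 in all of these alternatives, against 29.4% of all genes in the report's fit. The shares of all genes called lower in the alternatives are not given, so nothing further is read from that. The share of all genes called higher also moved, from 24.9% in the report to 33.1% with RLE factors. The median log2 fold change, 0.19 in the report, was 0.2331 with RLE factors, 0.2333 with DESeq2 and 0.1382 with limma-trend. With 1 library of the 1 h groups left out in turn, 66 to 80 were called higher and 0 lower, with medians of 0.1801 to 0.2117. In those fits 21.3% to 23.5% of all genes were called higher. The fit with the replicate number as a block called 80 higher, against 24.9% of all genes. Thresholds of 0.5 and -0.5 chose 6 genes, thresholds of 0.2 and -0.2 chose 247, and asking also that libraries be apart at 4 h and 8 h kept 25. Of all genes, 27.2% had every SK-3-91 library above every DMSO library at 4 h, and 59.6% had them below at 8 h. With 1 library of the 4 h and 8 h groups left out in turn, 98 to 125 were chosen. For the 19 genes named for their swing or 1 h increase, 303 of 323 fits kept the call and the direction and 0 reversed. BLVRA and GALK1, and CD4 once, lost the 1 h call in 16, and GSDME and CABP7 passed in 4. The minimum fold of 1.5, which called 0 of the 105, is not among these fits. The fit without a filter on low counts is among them and could not differ, since the filter removed 0 genes. The 1 h standard errors were wide for GK (0.167), EPS8L2 (0.145), CLTCL1 (0.166) and OLMALINC (0.172), against a median of 0.057 over the 105 genes. Dixon's criterion was applied to 72 sets of 4 values. These were the CPM of the genes given in every library, by group, and library values such as the percent of counts in the 105 genes. None held a value standing apart, and the other genes were not examined this way.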
